A study of Mus musculus with 15 samples.

Results

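Genes whose array name begins with Zfp and a number, the mouse symbol for zinc finger proteins, were followed in the uterus of ovariectomized mice after an injection of oestrogen. The array carried 251 such names on 482 probes. A gene was kept if at least 1 of its probes was called well above background by the scanner software on all 15 arrays, and the probe with the highest mean over those arrays stood for the gene. This gave 223 genes of the 20519 tested, and 28 names were left out, of which 15 were tested and 13 were not. The genes were thus chosen by their name, their detection calls and, among probes, the mean level, so none of these is a finding. The nearest names outside the rule were detected on 14 arrays (9 genes) or 13 arrays (2 genes), at mean log2 levels between -6.54 and -4.73. The dimmest genes inside it were Zfp179 at -5.46, Zfp57 at -4.84 and Zfp174 at -4.77.

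All mice were ovariectomized CD-1 mice, an outbred strain, so every group, the controls included, lacked its ovaries as a source of oestrogen. The groups were E2 2 h and E3 2 h, E2 24 h and E3 24 h (250 ng of the oestrogen in 100 µl of saline, with the uterus taken at the stated time) and vehicle (100 µl of saline), with 3 arrays in each. E2 and E3 are read by their usual meaning, estradiol and estriol, of which estriol carries one more hydroxyl on its D ring. The sources used here give neither the age of the mice nor when the vehicle uteri were collected. The labels do not say whether the 3 samples of a group came from separate animals, so the p-values rest on a spread that may be technical alone.

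Each level below is the log2 signal of a probe minus the 75th percentile of its array, and each difference is the first group minus the second on that scale, with its standard error (n = 3 arrays each). A gene was called when limma's p, adjusted over all 20519 genes, was under 0.05. The signal at that percentile was between 997 and 1737, and 63.1% to 80.0% of probes were well above background. The number of arrays limits the precision. The E3 24 h arrays spread most: their correlations with each other were 0.962 to 0.974, against 0.986 or more within each other group, and the median SD of the Zfp genes was 0.18 there and 0.12 to 0.15 elsewhere. All 3 vehicle arrays lay on 1 slide with no other group, so slide and treatment cannot be told apart by a fixed term. Scan day 1 held 11 arrays of all 5 groups and gives a comparison within 1 day.

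The name Zfp gathers proteins of different kinds. Most carry C2H2 zinc fingers, small folds around a zinc ion that read DNA in tandem arrays. Many of these also carry a KRAB domain, which recruits the corepressor Trim28 and, through it, histone methylation and heterochromatin proteins. Others carry a BTB or SCAN domain for pairing with other proteins. A few do not bind DNA at all: the CCCH proteins Zfp36, Zfp36l1 and Zfp36l2 bind AU-rich elements of short-lived mRNAs, such as those of cytokines and growth factors, and bring in the deadenylation machinery. By current RefSeq symbol 192 of the 223 were still Zfp genes of no stated class, 11 had a SCAN-type name (Zscan or Zkscan), 6 a Zbtb name, 3 an Rnf (RING finger) name and 8 another name, and 3 were the CCCH genes. In all 35 had been renamed, and the array's names are used here. The largest group by probe position (array build mm7) was on chromosome 7 with 54 genes, followed by chromosome 17 with 21 and chromosome 11 with 16.

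C2H2 proteins repeat a short linker between neighbouring fingers, and its codons are alike from gene to gene, which bears on how far a probe can be read as 1 gene. The linker was found in the probes of 6 genes. In 5 of them the reading frame of the linker was open through the whole probe, and those probes are shown for that reason, with the linker codons in capitals (mm7 probe positions chr7:27105534-27105593, chr6:118454592-118454651, chr17:19644483-19644542, chr17:19743052-19743111 and chr13:71304043-71304102, in the order of the lines).
Zfp146: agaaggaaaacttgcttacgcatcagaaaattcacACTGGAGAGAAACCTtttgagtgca
Zfp248: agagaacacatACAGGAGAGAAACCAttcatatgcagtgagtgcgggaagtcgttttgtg
Zfp51: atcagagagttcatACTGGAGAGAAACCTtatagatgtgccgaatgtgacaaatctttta
Zfp52: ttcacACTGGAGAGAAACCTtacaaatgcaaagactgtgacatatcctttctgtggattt
Zfp72: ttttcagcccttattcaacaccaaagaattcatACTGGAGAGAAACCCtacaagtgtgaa
The longest run of identical bases shared by the probes of any pair of the 223 genes was 21, between Zfp146 and Zfp52, followed by 19 between Zfp51 and Zfp72. The median of each gene's longest shared run was 10. Zfp146 and Zfp52 were both called higher at 2 h, and whether the probes share signal was not tested. Among the other linker probes, Zfp248 was at -1.25 ± 0.22 and Zfp51 at -0.03 ± 0.18 for E2 2 h minus vehicle (limma, adjusted p = 0.000723 and 0.904). The longest run that the Zfp248 probe shared was 11 bases, so its value says little about shared signal.

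At 2 h more Zfp genes were lower than higher with either oestrogen. Of 223 genes, 31 were called higher and 92 lower with E2, which is 13.9% and 41.3%, beside 16.3% higher and 22.2% lower among all genes tested. With E3, 32 were called higher and 92 lower, which is 14.3% and 41.3%, beside 16.9% and 23% of all genes. The comparisons of the 2 oestrogens share the vehicle arrays, so their likeness is not independent evidence. A change of 2-fold or more among called genes was reached upward by 4 and downward by 33 genes with E2, and by 3 and 29 with E3. Among all genes tested such falls also outnumbered such rises with either oestrogen, though less steeply. A lean to falls at this size is thus not particular to the Zfp genes. The median difference of the Zfp genes was -0.23 with E2 and -0.23 with E3, beside -0.12 and -0.15 over all genes tested. Markers of the uterine stroma were lower in the same groups. The summed level of 7 such markers, all well above background on every array, ran from 5.26 to 5.40 at E2 2 h and from 5.01 to 5.38 at E3 2 h, against 5.78 to 6.05 in vehicle, with no overlap. Of the 7, limma called 4 lower and 1 higher with E2 and 6 lower and 1 higher with E3. The homeobox gene Hoxa10 fell by 1.60 and 1.79, and the progesterone receptor gene Pgr rose by 2.01 and 1.84. Stroma was not alone in this. The summed level of 5 tested of 6 epithelial markers ran from 6.46 to 6.70 at E2 2 h, below the 6.92 to 7.37 of vehicle. At E3 2 h it ran from 6.35 to 7.11, which overlapped. Lymphocyte markers ran from 0.78 to 1.37 at E3 2 h, below the 1.46 to 1.93 of vehicle, and overlapped with it at E2 2 h. Erythrocyte markers lay above vehicle in both groups. The summed levels of endothelial, myometrial and macrophage markers overlapped with vehicle in both. The part of these markers in the Zfp counts was not tested. In whole tissue, fewer cells of a type and less RNA per cell cannot be told apart.

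The median level of the 223 genes showed the same order on single arrays. It was -0.51, -0.47 and -0.59 on the E2 2 h arrays, -0.39, -0.46 and -0.48 on the E3 2 h arrays, -0.33, -0.35 and -0.30 on the E2 24 h arrays, and -0.20, -0.20 and -0.30 on the E3 24 h arrays, against -0.11, -0.0064 and -0.025 on the vehicle arrays. Every treated array lay below every vehicle array. These values depend on what the array is scaled to. With each array's median as the scale, the median of all genes moved up by 0.16 for E2 2 h, 0.22 for E3 2 h, 0.22 for E2 24 h and 0.15 for E3 24 h, and the Zfp median moved with it. Relative to the median of all genes the Zfp genes stood at -0.10, -0.08, -0.21 and -0.16 in the 4 comparisons in that order, under either scale. With that scale 40 were higher and 73 lower at E2 2 h, and 51 higher and 60 lower at E3 2 h, beside 20.5% higher and 15.4% lower of all genes with E2 and 23.8% and 14.6% with E3. Within scan day 1 E2 gave 29 higher and 88 lower, and E3 gave 29 and 84. The shares of all genes within that day are not given, so these counts do not single out the Zfp genes.

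Dim probes fell more often than bright ones among all genes, so the Zfp genes were set beside other genes of like level. The 223 genes were divided into 4 bins of mean level, and the 17005 other genes detected on all 15 arrays were placed in the same bins. Weighted to the Zfp genes' bins, 17.5% of the other genes were higher and 23.1% lower at E2 2 h, and 18.4% and 23% at E3 2 h. In the lowest bin 24 of 56 Zfp genes were lower with E2, with a median difference of -0.38 beside -0.24 for the other genes. The second bin had 26 of 55 lower and a median of -0.33 beside -0.20. In the third bin 23 of 56 were lower and 12 higher, with medians of -0.04 and -0.08, and in the highest bin 19 were lower and 10 higher, with medians of -0.13 and -0.003.

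**Figure D1:**
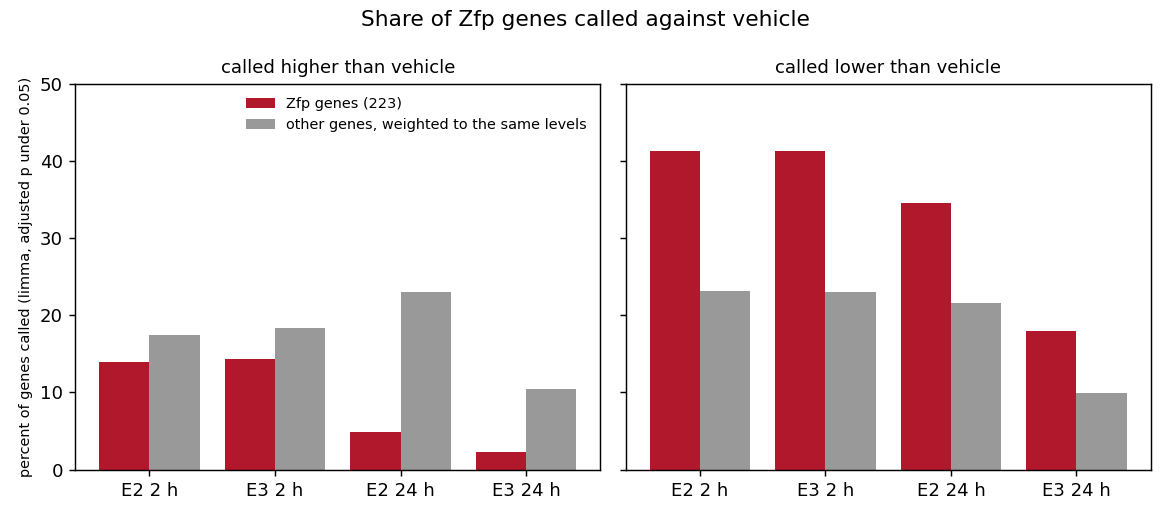
Percent of Zfp genes (red, 223 genes) and of other genes weighted to the same 4 bins of level (grey) that limma called higher (left) or lower (right) than vehicle, in 4 comparisons. At 2 h 41.3% of Zfp genes were called lower with each oestrogen, beside 23.1% and 23% of the other genes. At 24 h 34.5% were lower with E2 and 17.9% with E3.

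**Figure D2:**
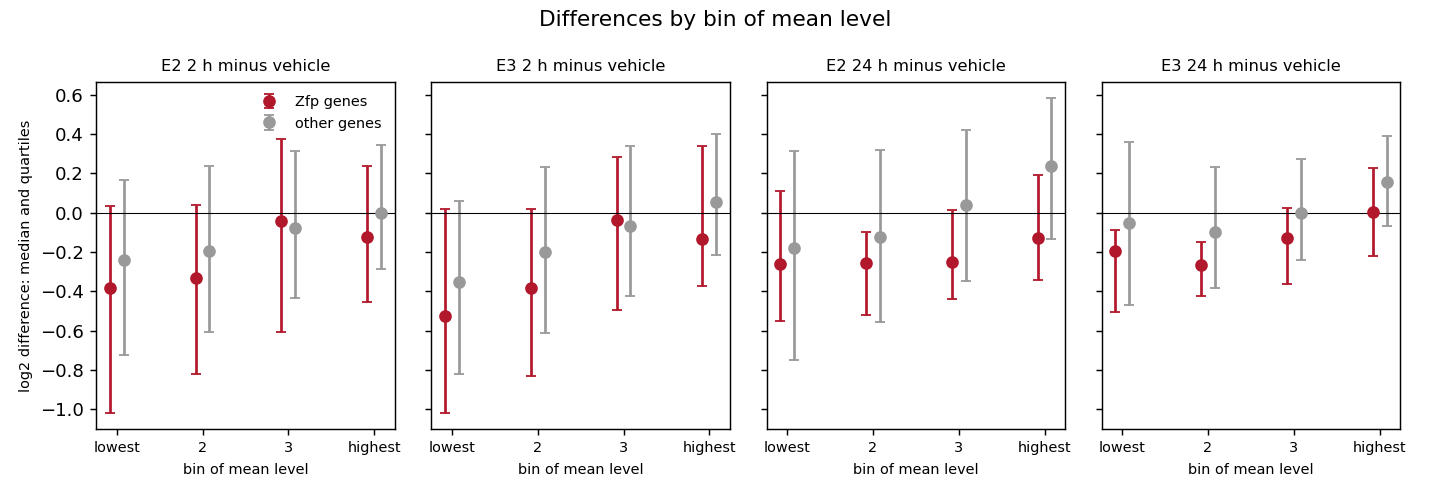
Median log2 difference from vehicle, with quartiles as bars, of Zfp genes (red) and other genes (grey) in 4 bins of mean level, from lowest to highest, for the 4 comparisons with vehicle. At E2 24 h the Zfp median lay below the other genes' median in every bin, by the widest margin in the highest bin (-0.13 and 0.24).

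The largest rise belonged to Zfp36, which encodes tristetraprolin, the founding mRNA-destabilizing CCCH protein and a known immediate early gene of growth factor responses. Its level was 2.05, 2.23 and 2.25 at E2 2 h and 2.76, 2.33 and 2.21 at E3 2 h. It was -0.78, -0.86 and -0.83 at E2 24 h, -0.41, -0.35 and -0.48 at E3 24 h, and -0.27, 0.02 and -0.22 in vehicle. All 2 h arrays lay above, and all 24 h arrays below, the vehicle arrays. Zfp36 was 5.05-fold higher at E2 2 h (2.34 ± 0.14, limma adjusted p = 2.76e-07) and 6.04-fold higher at E3 2 h (2.59 ± 0.14, limma adjusted p = 1.34e-07). At 24 h it fell by 0.66 ± 0.14 with E2 (limma adjusted p = 0.00237), while E3 gave -0.25 ± 0.14 (limma adjusted p = 0.21). A second probe of the gene gave 2.44 and 2.66 at 2 h and -0.86 and -0.41 at 24 h, with E2 and E3 in each case.

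The paralogs of Zfp36 had other courses. Zfp36l1 stood at 4.52, 4.94 and 4.77 at E2 2 h, 4.34, 4.67 and 4.48 at E3 2 h, 4.07, 4.25 and 4.11 at E2 24 h, and 4.49, 4.27 and 4.46 at E3 24 h, against 4.69, 4.78 and 4.69 in vehicle. The E2 24 h arrays were the lowest of the 5 groups and did not overlap with vehicle. Zfp36l1 had 0.03 ± 0.13 at E2 2 h (limma adjusted p = 0.894) and fell by 0.58 ± 0.13 at E2 24 h (limma adjusted p = 0.00314). Zfp36l2, much dimmer on its probe, was at -2.31, -2.48 and -2.63 at E2 2 h and -2.93, -3.03 and -3.17 at E3 2 h, against -3.83, -3.30 and -2.99 in vehicle. It rose by 0.90 ± 0.21 with E2 (limma adjusted p = 0.00425), and its E3 value was 0.33 ± 0.21 (limma adjusted p = 0.223). The difference between E2 and E3 at 2 h was 0.57 with a 95% interval of 0.12 to 1.02, and it was not called over all genes (limma adjusted p = 1). At E2 24 h Zfp36l2 was at -0.61 ± 0.21 (limma adjusted p = 0.0301), a call that was lost with 9 of the alternative settings, among them leaving out vehicle replicate 2 (-0.58), vehicle replicate 3 (-0.42), E2 24 h replicate 1 (-0.53) or E2 24 h replicate 3 (-0.57).

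Tristetraprolin works through the CCR4-NOT deadenylase, the decapping complex and the exosome, and the kinase Mapkapk2 phosphorylates it and restrains its activity. A list of 29 genes held such partners together with other RNA-binding proteins, among them Elavl1, Hnrnpd, Khsrp and Ythdf2, and 27 were tested. At E2 2 h 7 were higher and 2 lower (25.9% and 7.41%, beside 16.3% and 22.2% of all genes tested), and at E3 2 h 8 and 1 (29.6% and 3.7%, beside 16.9% and 23%). Mapkapk2 rose by 1.91 with E2 and 1.92 with E3, and the deadenylase gene Cnot7 by 0.84 and 0.72. Ythdf2, a reader of methylated mRNA that also recruits CCR4-NOT, rose by 1.13 and 1.07. The decapping cofactor gene Dcp1b fell by 0.79 and 0.84. At E2 24 h 5 were higher and 3 lower (18.5% and 11.1%, beside 20.9% and 22.6%), and at E3 24 h 2 and 1 (7.41% and 3.7%, beside 9.6% and 10.9%). Their median difference stayed near 0 in each comparison with vehicle, between -0.06 and 0.14.

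**Figure D3:**
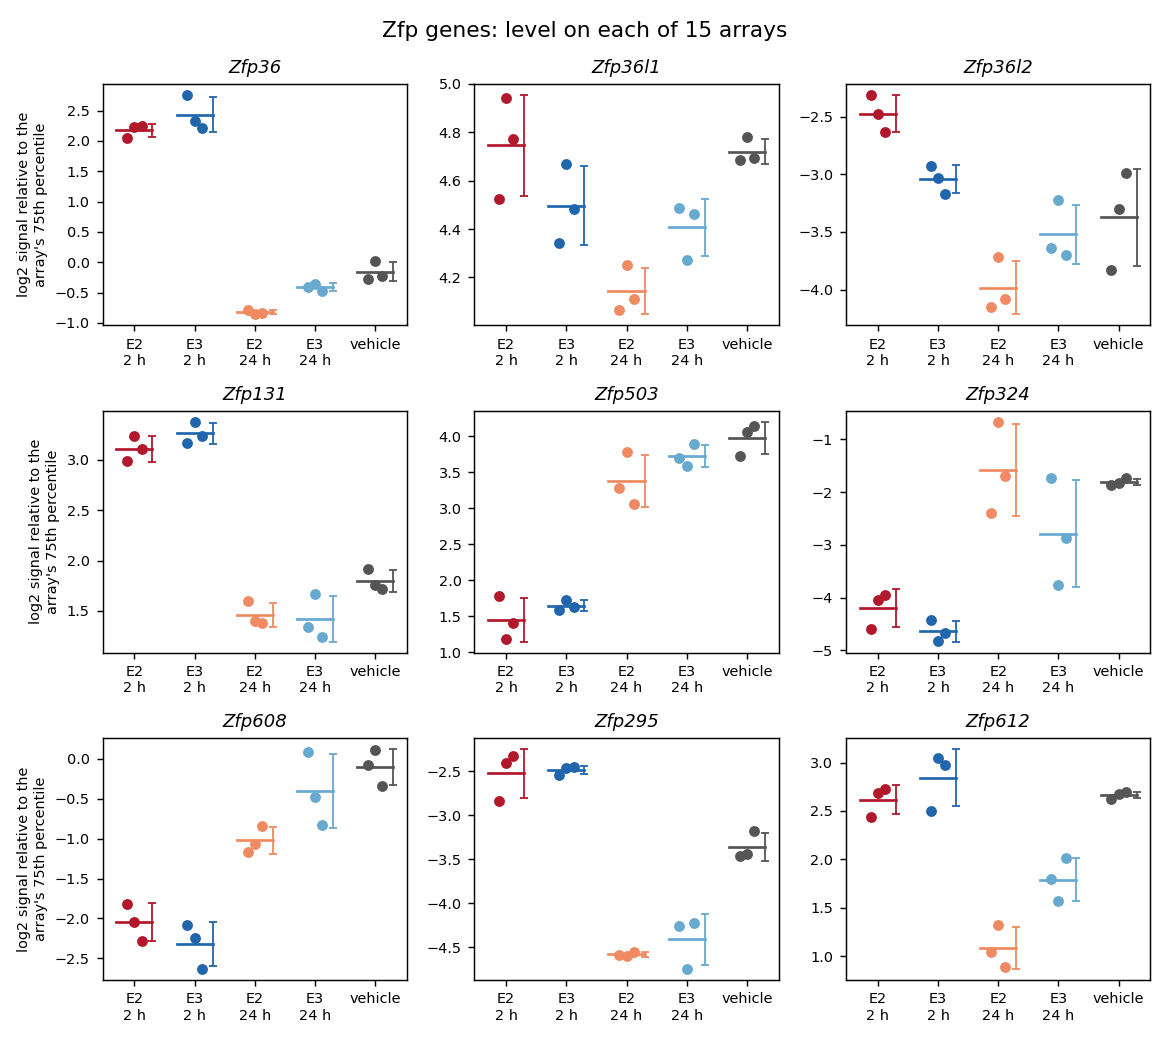
Level of 9 Zfp genes on each of the 15 arrays (log2 signal relative to the array's 75th percentile, points), by group, with the group mean (line) and SD (bar). Zfp36 and Zfp131 stood above vehicle on all 2 h arrays, Zfp503 and Zfp608 below it on all 2 h arrays, and Zfp612 below it on all 24 h arrays. Zfp324 spread widely at 24 h.

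Among the C2H2 genes the largest rises at 2 h were those of Zfp131 and Zfp169. Zfp131, a zinc finger protein with a BTB domain whose human counterpart has been described as a repressor of oestrogen receptor signalling, stood at 2.98, 3.24 and 3.11 at E2 2 h and 3.17, 3.38 and 3.24 at E3 2 h, against 1.92, 1.76 and 1.72 in vehicle. No 2 h array overlapped with vehicle. It was 2.48-fold higher with E2 (1.31 ± 0.13, limma adjusted p = 1.07e-05) and 2.76-fold higher with E3 (1.46 ± 0.13, limma adjusted p = 4.65e-06). Its 24 h arrays lay below vehicle, at 1.60, 1.40 and 1.38 with E2 and 1.34, 1.67 and 1.25 with E3, just short of a call (limma adjusted p = 0.0504 and 0.0558). Zfp169 rose by 1.18 ± 0.12 and 1.13 ± 0.12 with E2 and E3. Zfp31, now named Zscan20 for its SCAN domain, was at 1.07 and 0.88 on the chosen probe, but its second probe went the other way, at -0.55 and -0.57 (SE 0.17 each), so the gene's direction is uncertain. Zfp598, whose human counterpart marks stalled ribosomes with ubiquitin, rose by 0.92 and 0.84. Zfp295, now the BTB gene Zbtb21, rose by 0.84 and 0.87, and Zfp655 by 0.71 and 0.84. Zfp281, a factor of GC-rich promoters known from embryonic stem cells, rose by 0.47 and 0.60. Without E2 2 h replicate 2 the E2 call of Zfp281 was lost, at 0.39.

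The falls at 2 h reached further. Zfp503, a corepressor gene of the Nlz family with roles in patterning, stood at 1.78, 1.17 and 1.40 at E2 2 h and 1.58, 1.72 and 1.62 at E3 2 h, against 3.72, 4.06 and 4.15 in vehicle. All 6 arrays at 2 h lay far below the vehicle arrays. It was 5.75-fold lower with E2 (-2.52 ± 0.20, limma adjusted p = 2.06e-06) and 5.04-fold lower with E3 (-2.33 ± 0.20, limma adjusted p = 3.53e-06). At 24 h its levels were 3.28, 3.78 and 3.06 with E2 and 3.69, 3.59 and 3.89 with E3, each group overlapping with vehicle. The E2 value there was -0.60 ± 0.20 and the E3 value -0.25 ± 0.20 (limma adjusted p = 0.0275 and 0.386).

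Zfp324 stood at -4.60, -4.04 and -3.94 at E2 2 h and -4.43, -4.81 and -4.67 at E3 2 h, against -1.86, -1.82 and -1.74 in vehicle. It was 5.22-fold lower with E2 and 7.10-fold lower with E3 (limma adjusted p = 0.00155 and 0.000462). A second probe gave smaller differences, -1.61 and -1.36. At 24 h the levels were -2.39, -0.67 and -1.69 with E2 and -1.73, -3.75 and -2.87 with E3, and neither difference from vehicle was called (0.23 ± 0.47 and -0.98 ± 0.47, limma adjusted p = 0.721 and 0.152). Zfp608 was at -1.82, -2.04 and -2.29 at E2 2 h and -2.09, -2.25 and -2.63 at E3 2 h, against -0.08, 0.11 and -0.34 in vehicle. It fell by 1.94 ± 0.23 with E2 and by 2.22 ± 0.23 with E3 (limma adjusted p = 4.06e-05 and 1.48e-05), and its 2 further probes gave -2.34 and -3.13 with E3.

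Further falls were spread over genes of several kinds. Zfp99, now Zkscan14 with a SCAN and a KRAB domain, fell by 2.08 and 2.04 with E2 and E3. Zfp94 fell by 2.08 and 1.59, Zfp551 by 1.75 and 1.61, Zfp688 by 1.72 and 1.64, Zfp30 by 1.74 and 1.35 and Zfp454 by 1.61 and 1.79. Zfp217, whose human counterpart is an oncogene amplified in breast cancer, fell by 1.02 ± 0.12 with E2 and by 1.01 ± 0.12 with E3 (limma adjusted p = 3.62e-05 and 3.85e-05). Zfp161, now the BTB repressor gene Zbtb14, fell by 1.01 and 0.99. Zfp238, now Zbtb18, a repressor known from neuronal differentiation, was at -0.61 ± 0.16 and -0.52 ± 0.16. With the array median as the scale Zfp238 was no longer called, at -0.45 and -0.30. Its E3 call was also lost without vehicle replicate 1 (-0.52), vehicle replicate 3 (-0.48), E3 2 h replicate 2 (-0.44) or E3 2 h replicate 3 (-0.48).

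Several genes with well-known roles gave values that were not called at 2 h. Zfp57, which guards imprinted methylation, had 0.02 and -0.30 with E2 and E3, and Zfp143, an activator of promoters, 0.24 and 0.18. Zfp335, a chromatin-associated regulator, had 0.03 and 0.10. Zfp423, a partner of the Ebf factors in fat cell commitment, had 0.01 and -0.14. Some of these were called under other settings. Zfp143 was higher with the array median as the scale (0.39 and 0.41) and with quantile normalization (0.30 and 0.25). With E2 it was also called without vehicle replicate 1 (0.29). With E3, Zfp335 was higher with the array median as the scale (0.33), and Zfp57 was lower with scan day as a block (-0.35). The 3 genes with an Rnf symbol had medians of 0.30 and 0.27, with 0 called by limma in either comparison.

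Position along the genome was not used by the rule. On chromosome 7, 30 of 54 Zfp genes were lower with E2 at 2 h (55.6%, median -0.53) and 30 with E3 (55.6%, median -0.51). The 1199 other chromosome 7 genes detected on all arrays were lower in 22.1% and 21.3% (medians -0.13 and -0.12), and the 169 Zfp genes elsewhere, those with no placed chromosome included, in 36.7% with each oestrogen. At 24 h 20.4% of the chromosome 7 Zfp genes were lower with E2 and 11.1% higher, beside 39.1% lower and 2.96% higher of the Zfp genes elsewhere and 16.5% lower and 26% higher of the other chromosome 7 genes. Neighbouring Zfp genes arose by duplication and can share sequence, and whether this pattern differs beyond such sharing was not tested.

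Promoter sequence was available for 177 of the 223 genes (RefSeq, GRCm38.p6), as 229 windows of which the 250 bases before the annotated start were read. The promoters of Zfp36 and Zfp503 are shown because these genes had the largest rise and the largest fall at E2 2 h. In the Zfp36 promoter (chr7:28379229-28379478, minus strand) capitals mark a GC box, 63 to 58 bases before the start, and a CArG box, 58 to 49 bases before it, which share 1 base. In the Zfp503 promoter (chr14:21989602-21989851, minus strand) no searched motif was found, so there are no capitals.
Zfp36: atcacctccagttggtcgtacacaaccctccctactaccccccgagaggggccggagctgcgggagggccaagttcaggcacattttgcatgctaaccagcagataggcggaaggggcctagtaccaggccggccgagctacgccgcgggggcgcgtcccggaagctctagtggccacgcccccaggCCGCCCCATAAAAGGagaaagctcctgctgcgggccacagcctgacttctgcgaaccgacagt
Zfp503: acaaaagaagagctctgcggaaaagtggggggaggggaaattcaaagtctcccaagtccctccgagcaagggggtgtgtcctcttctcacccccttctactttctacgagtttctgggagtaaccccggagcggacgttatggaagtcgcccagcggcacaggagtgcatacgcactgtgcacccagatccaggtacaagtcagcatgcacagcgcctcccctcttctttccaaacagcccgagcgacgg
The motifs were searched on both strands and could overlap. The GC box (GGGCGG), a site of Sp factors, was in 45.9% of Zfp windows and 32.7% of all 32851 windows. The full oestrogen response element (GGTCA, any 3 bases, then TGACC) was in 0 of the 229 Zfp windows and 0.0639% of all, and GGTCA alone in 33.2% and 35.2%. The AP-1 site (TGANTCA) was in 2.62% and 6.75%, the cyclic AMP response element (TGACGTCA) in 3.49% and 1.55%, the E2F site (TTTGGCGC) in 2.18% and 0.417% and the CArG box, which serum response factor binds, in 0.873% and 1.47%. Of the windows of genes higher at E2 2 h, 16 of 29 held a GC box, and of those lower, 38 of 98. These are matches of letters in a window and nothing more.

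At 24 h most called Zfp genes were lower. With E2, 11 were called higher and 77 lower, which is 4.93% and 34.5%, beside 20.9% higher and 22.6% lower of all genes tested and 23% and 21.6% of other genes weighted to the same levels. The median difference was -0.23, beside -0.02 over all genes tested. With the array median as the scale the split was 34 higher and 32 lower, beside 30.6% higher and 14.9% lower of all genes. The count of higher genes was 5 without vehicle replicate 2, 6 without E2 24 h replicate 1 or replicate 2, and 6 within scan day 1, where 68 were lower.

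With E3 at 24 h, 5 were called higher and 40 lower, which is 2.24% and 17.9%, beside 9.6% and 10.9% of all genes tested and 10.5% and 9.98% at the same levels. The median difference was -0.17, beside -0.01 over all genes. With the array median as the scale 10 were higher and 15 lower, which is 4.48% and 6.73%. Of the 20519 genes 3070 (14.96%) were higher and 1343 (6.55%) lower. The share lower was then near that of all genes, but the share higher stayed below it. Relative to the median of all genes the Zfp genes stood at -0.16 under either scale. With the 75th percentile as the scale the median difference from vehicle stayed between -0.19 and -0.13 with each array left out in turn, but the counts varied. Shares of all genes are not given for these settings, so the counts do not single out the Zfp genes. The count of lower genes was 11 without vehicle replicate 1, 11 without vehicle replicate 2, 23 without E3 24 h replicate 2 and 24 without E3 24 h replicate 3. The count of higher genes was 1, 1, 3 and 3 in those settings, 3 without E2 2 h replicate 3 and 8 without E3 24 h replicate 1. Within scan day 1 it was 1 higher and 16 lower. Marker levels of several cell types differed at 24 h. Summed over 4 endothelial markers the level ran from 2.07 to 2.34 at E2 24 h and from 2.24 to 2.65 at E3 24 h, against 2.72 to 2.92 in vehicle. For 5 tested of 6 epithelial markers it ran from 7.51 to 7.97 and from 7.51 to 8.06, against 6.92 to 7.37, and for the 7 stromal markers from 6.16 to 6.22 and from 6.17 to 6.41, against 5.78 to 6.05. None of these ranges overlapped with vehicle. For 5 myometrial markers it ran from 9.08 to 9.80 at E2 24 h, which overlapped with the 8.56 to 9.12 of vehicle, and from 9.46 to 9.76 at E3 24 h, which did not. The 4 tested of 5 macrophage markers ran from 6.38 to 6.54 at E2 24 h, below vehicle, and from 7.12 to 8.46 at E3 24 h, overlapping with the 6.76 to 7.35 of vehicle. That of 3 erythrocyte markers lay above vehicle (5.08 to 5.70) in every treated group, from 5.87 to 6.94. Lymphocyte markers ran from 0.79 to 1.37 at E2 24 h, below the 1.46 to 1.93 of vehicle, and overlapped with vehicle at E3 24 h. Their part in the 24 h counts was not tested.

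**Figure D4:**
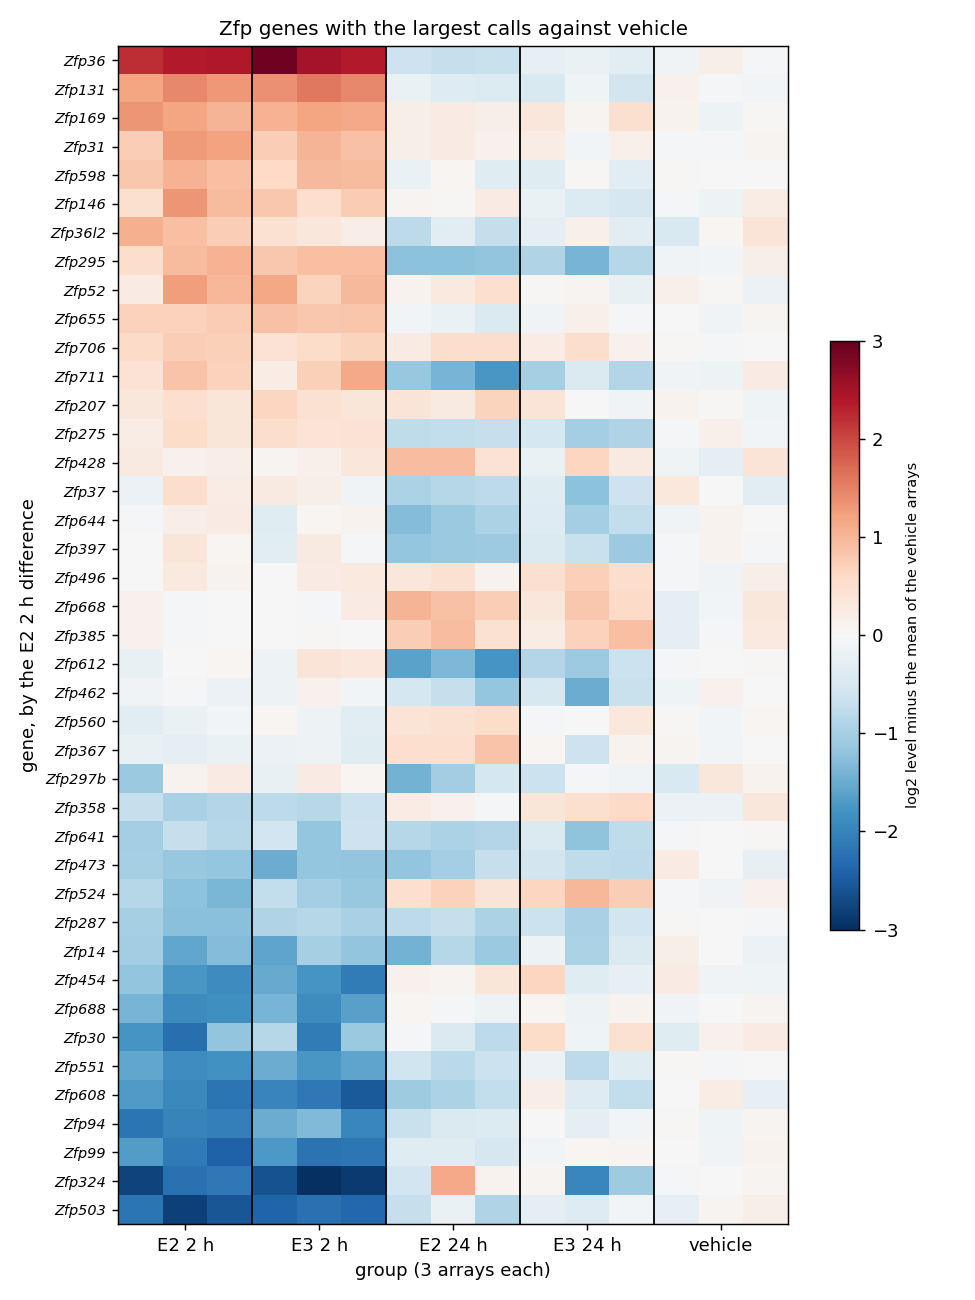
Level of the 41 Zfp genes with the largest called rises and falls against vehicle, on each of the 15 arrays, as log2 difference from the mean of the vehicle arrays (colour; red higher, blue lower). Rows run from the highest to the lowest E2 2 h difference, and vertical lines part the groups. Zfp36 at the top and Zfp503 at the bottom stood out at 2 h and lay nearer to vehicle at 24 h, while Zfp612, Zfp711 and Zfp295 were lowest at E2 24 h.

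Zfp612 gave the largest called fall at E2 24 h, and at E3 24 h it followed Zfp295 and Zfp462 (-1.05, -0.88 and -0.87 for Zfp295, Zfp462 and Zfp612). Its levels were 1.05, 1.32 and 0.89 at E2 24 h and 1.79, 1.57 and 2.01 at E3 24 h, against 2.63, 2.67 and 2.69 in vehicle. The 3 groups did not overlap, and at 2 h the gene was near vehicle, at 2.44, 2.69 and 2.72 with E2 and 2.50, 3.05 and 2.98 with E3. It was 2.98-fold lower at E2 24 h (-1.58 ± 0.17, limma adjusted p = 3.83e-05) and 1.83-fold lower at E3 24 h (-0.87 ± 0.17, limma adjusted p = 0.0075). A second probe gave -1.34 and -1.12.

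Zfp295, called higher at 2 h, was lower at 24 h. Its levels were -2.84, -2.40 and -2.33 at E2 2 h, -2.54, -2.47 and -2.46 at E3 2 h, -4.59, -4.60 and -4.55 at E2 24 h, and -4.26, -4.74 and -4.22 at E3 24 h, against -3.46, -3.44 and -3.18 in vehicle. Each treated group lay clear of vehicle on its own side. It was 2.33-fold lower at E2 24 h and 2.07-fold lower at E3 24 h (limma adjusted p = 0.000136 and 0.00372).

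Other falls at E2 24 h included Zfp711, an X-linked gene whose human counterpart is mutated in intellectual disability, which fell by 1.43 ± 0.24 (limma adjusted p = 0.000609). Its E3 24 h value of -0.77 ± 0.24 (limma adjusted p = 0.042) was not called with 14 of the alternatives, among them leaving out any 1 of the vehicle arrays (-0.82, -0.84 and -0.64). Zfp644, whose human counterpart recruits a histone methyltransferase, fell by 1.12 with E2 and by 0.72 with E3, and its 2 further probes gave smaller values (-0.30 and -0.33 with E2). Zfp275 fell by 0.73 and 0.81 and Zfp287 by 0.81 and 0.73. Zfp397 was at -1.13 and -0.73 on the chosen probe but at -0.04 and 0.06 on its second probe. Zfp473, whose human counterpart acts in histone pre-mRNA processing, was at -0.96 and -0.69 at 24 h and -1.11 and -1.28 at 2 h on the chosen probe. Its second probe gave the opposite sign in all 4 comparisons, at 0.88 and 0.10 at 24 h and 0.46 and 0.47 at 2 h. Zfp148, a factor of GC-rich promoters, fell by 0.73 ± 0.13 with E2 at 24 h (limma adjusted p = 0.000706).

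Few genes were higher at 24 h. Zfp668 stood at 0.05, -0.08 and -0.23 at E2 24 h and -0.62, -0.16 and -0.39 at E3 24 h, against -1.24, -1.04 and -0.63 in vehicle. Both 24 h groups lay above vehicle, by a narrow gap with E3. The chosen probe was higher by 0.88 ± 0.17 with E2 (limma adjusted p = 0.0012), but the second probe of Zfp668 was at -0.75 ± 0.14 with E2 and -0.42 ± 0.14 with E3, so the gene's direction is uncertain. The E3 difference of 0.58 ± 0.17 (limma adjusted p = 0.0303) was lost without vehicle replicate 1 (0.45), vehicle replicate 2 (0.54), E3 24 h replicate 2 (0.46) or E3 24 h replicate 3 (0.58), and within scan day 1 (0.46). Zfp524 was at 2.00, 2.19 and 1.88 at E2 24 h and 2.14, 2.49 and 2.23 at E3 24 h, against 1.47, 1.40 and 1.63 in vehicle, and had been lower at 2 h, by 1.14 with E2 and 0.96 with E3 on the log2 scale. It rose by 0.79 ± 0.16 at E3 24 h (limma adjusted p = 0.00907). Its E2 24 h value of 0.52 ± 0.16 (limma adjusted p = 0.0195) lost its call without vehicle replicate 1 (0.51), vehicle replicate 2 (0.47) or E2 24 h replicate 2 (0.44), and with quantile normalization (0.37). Zfp385, now Zfp385a, an RNA-binding zinc finger gene, rose by 0.71 with E2. Zfp367 was at 0.63 on the chosen probe and -0.14 on its second probe.

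A list of 19 genes held corepressors that KRAB proteins work with, together with other genes of chromatin and DNA methylation, and 18 were tested. At E2 24 h 6 were higher and 3 lower, which is 33.3% and 16.7%, beside 20.9% and 22.6% of all genes tested. At E3 24 h 0 were higher and 3 lower (16.7%, beside 9.6% and 10.9%), at E2 2 h 1 and 2 (5.56% and 11.1%, beside 16.3% and 22.2%) and at E3 2 h 3 and 4 (16.7% and 22.2%, beside 16.9% and 23%). At E2 24 h Trim28 rose by 0.54, and the histone deacetylase gene Hdac1 by 0.54. Uhrf1, which guides maintenance methylation of DNA in S phase, rose by 1.41 and the methyltransferase gene Dnmt1 by 0.77. At E3 24 h Uhrf1 fell by 0.82, and Dnmt1 was at -0.35 without a call. Atf7ip, a partner of the methyltransferase Setdb1, fell by 1.20 with E2 and by 1.17 with E3 at 2 h, and by 0.63 and 0.51 at 24 h.

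Between 2 h and 24 h of the same oestrogen, several genes that had differed from vehicle at 2 h moved the other way. For E2 24 h minus E2 2 h 73 Zfp genes were higher and 62 lower, beside 29.6% higher and 22.7% lower of all genes tested, and for E3 24 h minus E3 2 h 77 were higher and 54 lower, beside 29% and 20.3%. The largest rises from 2 h with E2 were those of Zfp324 (2.61), Zfp503 (1.92) and Zfp454 (1.79), and the largest falls those of Zfp36 (7.99-fold lower), Zfp711 (-2.09) and Zfp295 (-2.06). With E3 the largest rises were those of Zfp503 (2.08), Zfp99 (2.06) and Zfp608 (1.91), and the largest falls those of Zfp36 (-2.85), Zfp295 (-1.92) and Zfp131 (-1.84). The values of the same genes at 2 h enter both these differences and those from vehicle with opposite sign. When slide entered the fit of the treated arrays as a block, the E3 counts were 0 higher and 2 lower, among 54 and 87 of all genes.

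E2 and E3 at the same dose were compared at each time. At 2 h limma called 0 of the 223 genes and 0% of all genes, with 8 Zfp genes (3.59%) and 3.64% of all genes at an unadjusted p under 0.05. Differences ran from -0.49 to 1.01. The 95% interval lay within 2-fold in either direction for 216 of the 223 genes, and the median interval reached 0.32 to either side. These intervals, and not the absence of a call, bound how far E2 and E3 could differ. For Zfp36 the interval was -0.56 to 0.04.

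At 24 h 8 Zfp genes differed between E2 and E3, beside 15.5% of all genes tested called in either direction. Zfp367 was at -0.26, -0.26 and 0.08 with E2, against -0.72, -1.39 and -0.67 with E3, and Zfp239 at -0.65, -0.55 and -0.84, against -1.04, -1.51 and -1.40. Zfp521, a partner and antagonist of the Ebf factors, was at 1.65, 1.88 and 1.59 with E2, against 2.48, 2.21 and 2.59 with E3, and Zfp664 at -0.30, -0.19 and -0.29, against 0.44, 0.54 and 0.24. In each of these 4 genes the groups did not overlap. The difference of E2 minus E3 was 0.78 ± 0.17 for Zfp367 and -0.72 ± 0.14 for Zfp521 (limma adjusted p = 0.0107 and 0.00612). A second probe of Zfp367 gave 0.12 ± 0.22. At a given time no slide held both oestrogens, and with slide as a fixed block 0 Zfp genes and 0 of all genes were called by limma. The differences under that block were 1.14 for Zfp367, 1.36 for Zfp239 and -0.74 for Zfp664, as large as before or larger, and -0.25 for Zfp521, which was smaller. The number called was 3 without E2 24 h replicate 1, 5 without replicate 2 and 4 without replicate 3. Within scan day 1 it was 8 as well, but not the same 8: Zfp9 (0.71), Zfp239 (0.52) and Zfp664 (-0.58) lost their calls there. The shares of all genes without 1 array or within that day are not given.

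**Figure D5:**
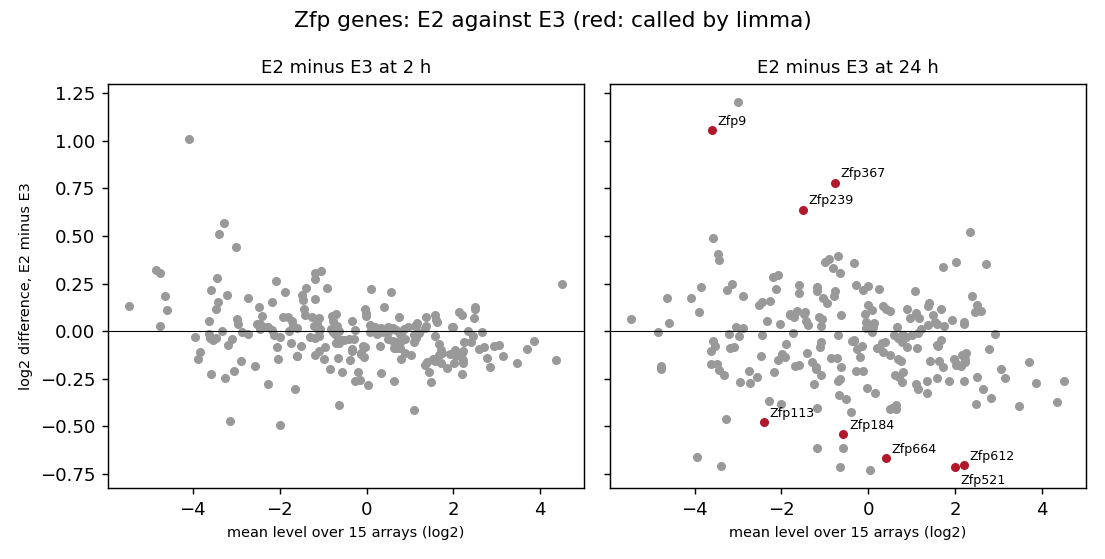
Difference of E2 minus E3 (log2, vertical axis) against mean level over 15 arrays (log2, horizontal axis) for each of the 223 Zfp genes, at 2 h (left) and 24 h (right). Red points with names were called by limma: 0 genes at 2 h and 8 at 24 h.

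Where a Zfp gene had further probes on all 15 arrays (107 genes), these mostly moved as the chosen probe did. They held 153 further probes. Of the further probes of called genes, 53 of 56 had the direction of the chosen probe at E2 2 h, 48 of 53 at E3 2 h, 50 of 59 at E2 24 h and 30 of 34 at E3 24 h.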

How the data were processed

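Total RNA, labelled with Cy3, from 15 uterine samples had been hybridised to one-colour Agilent arrays, and the deposited files hold the intensity of each spot as the authors' Agilent Feature Extraction software wrote it (version 9.5.3.1 per the file headers, 9.5 per the submitters' processing notes). The processed signal is an intensity on a linear scale that the software had corrected for background, per the file headers. No between-array normalization by the authors was used. Control spots and spots marked as outliers were left out, and spots of 1 probe were averaged. Of the 41174 probes, 53 without a value on every array were dropped. Levels were log2 of the processed signal minus each array's 75th percentile.

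One limma model (limma 3.58.1, R 4.3.3) with a mean per group was fitted over all 15 arrays and 20519 genes, with Benjamini-Hochberg adjustment over all of them and a threshold of 0.05. The fitting code was tested on simulated data. The genes named in the text were, for each comparison, those with the largest called rises and falls whose groups did not overlap, with genes of known role added. The members and lists were chosen with earlier results of these data known. Replicate numbers were not used to pair the arrays in the main fit. Of 30 same-number pairs of deviations from the group means, 6 correlated above 0.1 (range -0.22 to 0.20). Pairs with different numbers were not compared, so these values cannot exclude a pairing. The alternatives were other scalings and background corrections, no or a stricter filter on dim probes, the mean of a gene's probes, blocks for slide, scan day and replicate number, 1 scan day alone, the groups of a comparison alone, current gene symbols, and leaving out each array.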

Additional observations from a re-analysis of the deposited data

Results flagged for a closer look

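For 8 of the 223 Zfp genes the effects of E2 and E3 at 24 h differed by limma's test of the difference itself. With E2 1.35% were higher and 2.24% lower, beside 8.74% and 6.77% of all genes tested, so such calls were rarer among Zfp genes. The values are E2 24 h minus E3 24 h on the log2 scale. Zfp9 (1.05), Zfp367 (0.78) and Zfp239 (0.64) were higher with E2. Zfp521 (-0.72), Zfp612 (-0.70), Zfp664 (-0.67), Zfp184 (-0.54) and Zfp113 (-0.48) were lower with E2. None of these 8 was called with slide as a fixed block, where the differences were 1.98 for Zfp9, 1.14 for Zfp367, 1.36 for Zfp239, -0.25 for Zfp521, -0.51 for Zfp612, -0.74 for Zfp664, -0.55 for Zfp184 and -0.24 for Zfp113. Zfp9 stood at -3.12, -2.54 and -3.04 with E2, against -3.52, -4.85 and -3.48 with E3, and was at 0.60 without E3 24 h replicate 2.

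For 1 gene, Zfp418, the difference of E2 minus E3 itself differed between 24 h and 2 h, by 0.72 ± 0.19 (limma adjusted p = 0.0467), beside 5.89% of all genes tested. Its levels at 2 h were -4.01, -3.98 and -3.97 with E2, against -3.45, -3.50 and -3.61 with E3, and at 24 h they were -2.64, -2.68 and -2.31, against -2.57, -2.97 and -2.83.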

How the results depend on the processing

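The counts at 2 h with E2 stayed within 1.5 times under every alternative, from 21 to 40 higher and 73 to 131 lower. The 58 named genes gave 193 results, of which 123 were called. Of these, 73 were called under every setting run for that result, and 0 reversed. The fixed slide block was run for 81 of the 193 results, and 26 of the 81 lost their call with it. It was not run for the comparisons with vehicle, so their calls were not put to that setting. The settings with no or a stricter filter, with the groups of a comparison alone, with current symbols, with the mean of a gene's probes and with the replicate block were not run for single genes. With the array median as the scale the median differences were -0.070 (E2 2 h), -0.0075 (E3 2 h), -0.0086 (E2 24 h), -0.024 (E3 24 h), 0.12 (E2 24 h minus 2 h) and 0.020 (E3 24 h minus 2 h), and the counts higher and lower were 51 and 60 at E3 2 h, 34 and 32 at E2 24 h and 10 and 15 at E3 24 h. The counts at E3 24 h, 5 higher and 40 lower, were 2 and 25 with no filter on dim probes, 2 and 23 with slide as a random block, 2 and 22 with scan day as a block, 1 and 16 within scan day 1, and 0 and 0 with only the groups of the comparison. With the replicate block 3 were higher at E3 24 h, and 27 higher and 87 lower at E2 2 h. At E2 24 h 6 were higher within scan day 1. The 8 genes that differed between E2 and E3 at 24 h were 15 with quantile normalization, 5 with no filter, and 0 with only the groups of the comparison or with slide as a fixed block. For 24 h minus 2 h, the fixed slide block gave 39 lower with E2, and 0 higher, 2 lower and a median of -0.059 with E3. The E3 median was 0.17 with the scan day block and 0.18 within scan day 1, and 51 were higher with only the groups of the comparison. With members by current symbol (297 genes) the medians were -0.35 (E2 2 h), -0.32 (E3 2 h) and 0.17 (E2 24 h minus 2 h, 110 higher). The cause of these shifts was not tested. For most of these settings the shares of all genes are not given, so the counts do not single out the Zfp genes.

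Leaving out each array in turn gave, higher and lower, 21 to 33 and 79 to 93 (median -0.24 to -0.19) at E2 2 h, 24 to 33 and 74 to 95 (-0.26 to -0.20) at E3 2 h, 5 to 13 and 57 to 83 (-0.25 to -0.17) at E2 24 h, and 1 to 8 and 11 to 49 (-0.19 to -0.13) at E3 24 h. For 24 h minus 2 h it gave 60 to 76 and 49 to 64 (0.03 to 0.09) with E2 and 54 to 78 and 46 to 56 (0.05 to 0.13) with E3. For E2 minus E3 it gave 0 to 0 at 2 h and 3 to 12 at 24 h. The shares of all genes with an array left out are not given. Dim probes limit what can be read below the detection call.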

Other observations

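Of the 28 Zfp names that missed the detection rule, 15 were tested. At 2 h 0 were higher and 4 lower with E2 (26.7%, beside 22.2% of all genes tested), and 0 higher and 7 lower with E3 (46.7%, beside 23%), by limma. Most of these 15 genes were detected on every vehicle array, so the arrays that missed them were treated ones. Sorting genes in this way favours falls, so these shares cannot be compared with those of all genes. Zfp750, a regulator of epidermal differentiation, had a mean level of -6.92 at E2 2 h and -7.56 at E3 2 h, against -3.91 in vehicle. Its probe was well above background on 1 E2 2 h array, 1 E3 2 h array and 3 vehicle arrays, so the size of these differences is uncertain. At 24 h it was at -3.93 with E2 and -3.49 with E3.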
